A study of Homo sapiens with 8 samples.

Results

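ASIC2, PARD3, BCAS3, RAC2, SPTB, IGFBP2, ADAMTS12 and TSHZ2 are 8 of 19974 protein-coding genes on chromosomes 1 to 22 and X, chosen by chromatin regions in and around them that the authors listed as less accessible after Orc6 knockdown without H2O2. The genes have such a region within 1 kb of an annotated end, and 7 of them lead the order of such genes by number of regions and then by summed length, while TSHZ2 was added with its regions lower with H2O2 known. Regions were counted in the RefSeq span of each gene with 5 kb on each side. U2OS cells, an established human osteosarcoma line, received an siRNA against Orc6 (siOrc6) or the control siRNA siGl3 for 72 h, were held by a double thymidine block and released for 3 h, and were collected after 30 min in 5 mM H2O2 or untreated. The 4 conditions, each with 2 libraries, were siOrc6 with H2O2, siGl3 with H2O2, siOrc6 untreated and siGl3 untreated. The assay was ATAC-seq, which reads out where a transposase can reach the DNA. The cells are 1 cancer line, and no file used here reports how much Orc6 was left after the siRNA.

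Each condition has 1 list of accessible regions (peaks) for both of its libraries. The lists held 97816 peaks in siOrc6 with H2O2, 103674 in siGl3 with H2O2, 109304 in siOrc6 untreated and 115292 in siGl3 untreated. The authors' lists of regions lower or higher in siOrc6 than in siGl3 give positions only. Neither read counts nor sizes of change nor values of single libraries are in the files used here, so depth and the spread between replicates are unknown. Every comparison below is therefore a count without a test, set beside the same count over all peaks or regions.

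Orc6 belongs to the origin recognition complex (ORC), which marks where DNA replication can begin. The 8 genes form no pathway. They code for an ion channel of neurons, a scaffold of cell polarity, a cytoskeletal and autophagy protein, a GTPase best known from blood cells, a spectrin, a binder of growth factors, a secreted protease and a transcription factor. Accessible regions far from promoters are often enhancers, DNA that regulates transcription at a distance.

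The choice used the untreated comparison, so its values are given as a description. The 8 genes held 32 lower regions. Overlapping or adjoining peaks of both untreated lists were joined into merged peaks, and 35 of 269 in the 8 spans lay at a lower region. This is 13.0% (Wilson 95% interval 9.51% to 17.6%, counting error only), against a background of 4.99% of all 123830 merged peaks. The same spans held 12 higher regions at 13 of the 269 merged peaks (4.83%), against a background of 7.36%.

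ASIC2 held 7 lower regions, PARD3 6, BCAS3 and RAC2 4 each, SPTB, IGFBP2 and ADAMTS12 3 each, and TSHZ2 2. These counts follow gene length only in part, but the genes were chosen by number of lower regions whatever their length. A short gene with few merged peaks could thus enter only with a high share of them at a lower region. RAC2 spans 19.0 kb and had 4 of its 7 merged peaks at a lower region, and IGFBP2 spans 31.6 kb and had 4 of 8. ASIC2 spans 1144 kb and had 7 of 85, where the background share of 4.99% would give 4.24. PARD3 had 6 of 62, BCAS3 6 of 46, SPTB 3 of 21, ADAMTS12 3 of 15 and TSHZ2 2 of 25. Among the 8 genes, RAC2 and IGFBP2 thus had the highest shares and ASIC2 and PARD3 the highest numbers. Per 100 kb of span, RAC2 held 13.8 lower regions, IGFBP2 7.21, SPTB 2.09 and PARD3 0.838, while TSHZ2 held 0.375. Higher regions were found in 5 of these genes: ASIC2 5, PARD3 3, BCAS3 2, SPTB and ADAMTS12 1 each. RAC2, IGFBP2 and TSHZ2 carried none.

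**Figure D1:**
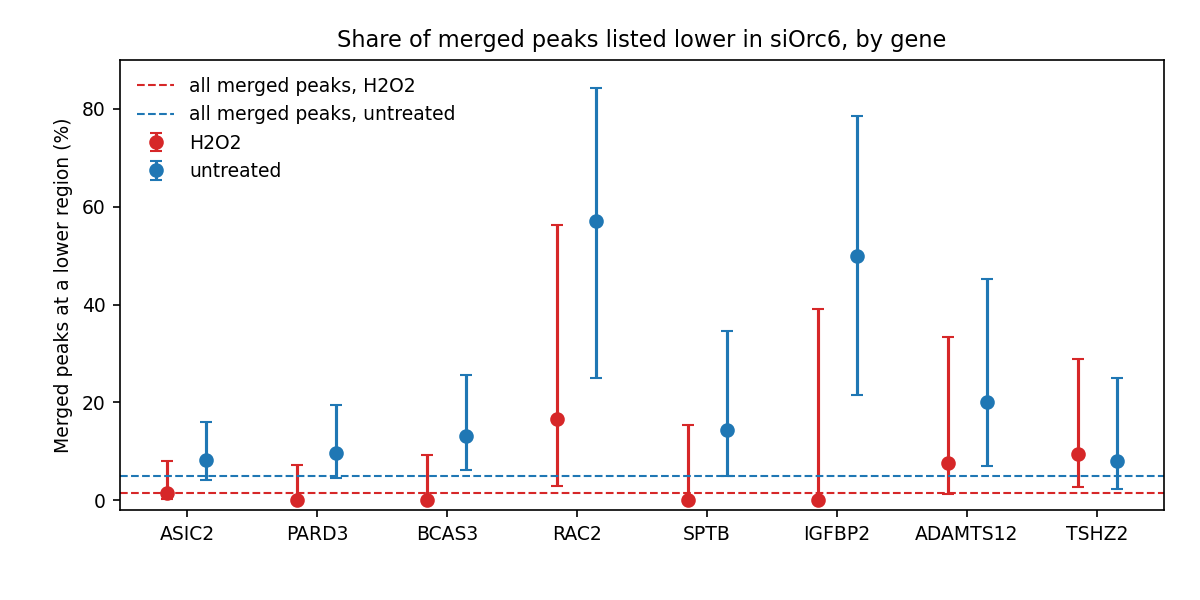
Share of merged peaks at a region listed lower in siOrc6 than in siGl3, in percent, for each gene with H2O2 and untreated. Bars are Wilson 95% intervals for counting error, and dashed lines are all merged peaks (1.41% with H2O2 and 4.99% untreated). RAC2 (57.1%) and IGFBP2 (50.0%) have the highest untreated shares, with wide intervals.

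Among protein-coding genes with a lower region within 1 kb of an annotated end, ordered by number of lower regions and then by their summed length, 7 of the 8 genes take places 1 to 6 and 8. Genes without a region at an end were thus not eligible. ADAMTS12, at place 8 with 3 lower regions of 1853 bp in all, is the last of these. Just outside are SLC41A3, NECTIN4, ETV7, ELOVL6 and SAMD5, also with 3 regions, and PARD6B, GDAP1L1 and ACSL5 with 2. LOC105370706 at place 7 has 3 regions and is not among the 8. TSHZ2 is at place 43 with 2 regions, and its 2 lower regions with H2O2 were known when the genes were chosen. Other genes held more lower regions without one at an end. RBFOX1 had 11, RGS6 10, COL22A1 and RANBP2 9 each and KIAA1671 8. Over all protein-coding genes, 7 had at least as many as ASIC2 and 196 at least 3. Among other genes with at least 23 merged peaks, the median number in the 8 genes, the highest shares at a lower region were 29.4% in CORO2B, 24.1% in SLC35F3 and 24.0% in DYSF, followed by COL22A1 (11 of 50) and CLSTN2 (7 of 35). RAC2 and IGFBP2 have fewer merged peaks than this limit. Of the genes in the order above, also under it, LOC105370706 had 4 of 5 at a lower region, PARD6B 3 of 4 and ACSL5 2 of 4. NECTIN4 had 4 of 9, GDAP1L1 3 of 7, SLC41A3 3 of 9, ETV7 and SAMD5 3 of 10 each and ELOVL6 3 of 13.

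That each of the 8 genes has a lower region near an end was fixed by the choice, and which end it is describes those same regions. The RefSeq start-site table gives a strand for ASIC2, BCAS3, SPTB, IGFBP2, ADAMTS12 and TSHZ2. All 6 had an untreated lower region within 1 kb of the 3′ end, and 0 of 6 had one within 1 kb of the 5′ end. Strand was not used to choose the genes, but the positions come from the untreated list that chose them, and nothing is read from them beyond these genes. For PARD3 and RAC2, given by coordinate, the lower region was at the end of lower coordinate in both. Of all protein-coding genes with a strand, 88 had an untreated lower region at the 3′ end alone, 51 at the 5′ end alone and 5 at both. For regions lower with H2O2 the order was the other way, with 11 genes at the 3′ end alone, 19 at the 5′ end alone and 1 at both. Within 3 kb of an end these H2O2 counts were 33 and 33. Merged untreated peaks of all kinds were found at the other end in more genes, with 8544 genes at the 5′ end alone and 596 at the 3′ end alone. Within 1 kb of a 3′ end lay 1.51% of all untreated lower regions and 2.49% of merged untreated peaks. For 5′ ends these shares were 0.948% and 9.34%. Lower regions were thus scarcer than peaks at either end, and more so at the 5′ end. Whether the 8 genes differ from other genes with lower regions at an end was not tested.

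**Figure D2:**
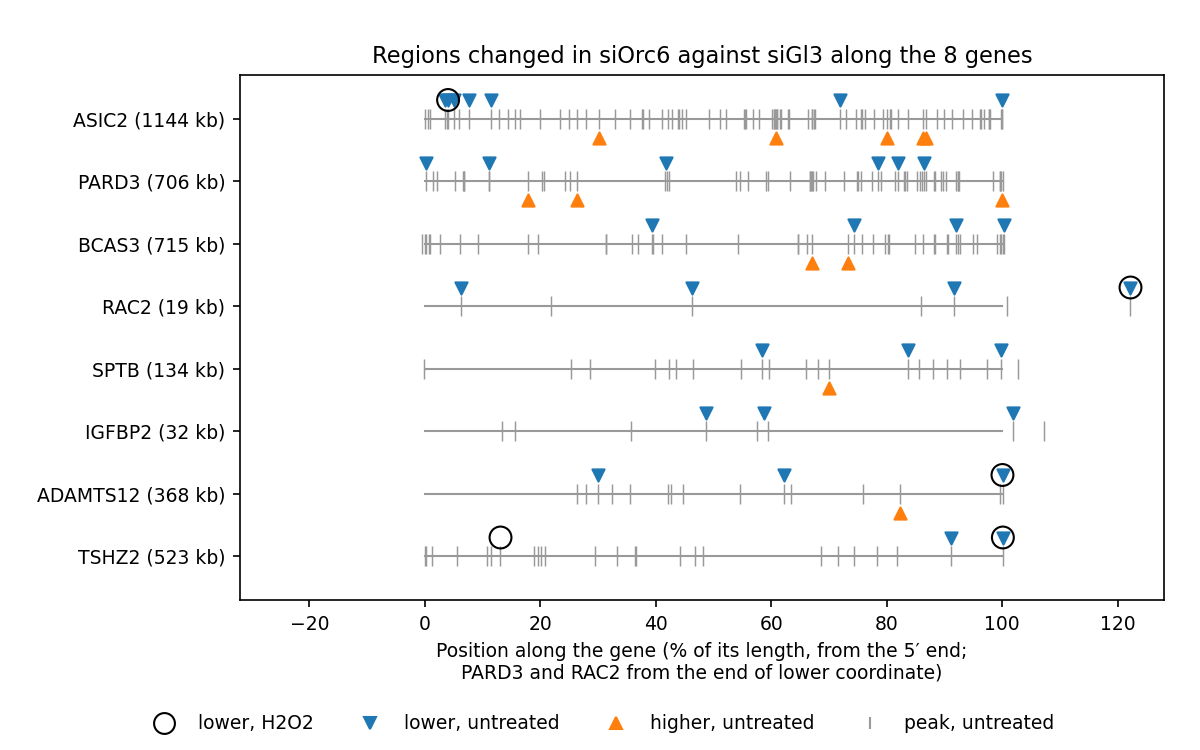
Position of changed regions along each gene, in percent of gene length from the 5′ end (PARD3 and RAC2 from the end of lower coordinate). Circles are regions lower in siOrc6 with H2O2, blue triangles lower and orange triangles higher ones without it, and grey ticks merged untreated peaks. By the choice, each of the 8 genes has a blue triangle at or near an end, and 5 of the 7 in ASIC2 lie between 3.52% and 11.5%.

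The 5′ ends themselves varied from strongly open to listed without a peak. At the start of BCAS3 (hg38, chromosome 17) a peak stood at the 98.9 percentile of peak signal in siOrc6 with H2O2 and 98.8 in siGl3 with H2O2. Its percentiles were 99.0 in siOrc6 untreated and 99.3 in siGl3 untreated. Peak signal is the authors' value for each peak, and a percentile is its rank within its own list. Lists of different length are not compared as a change. The upstream start of SPTB had a peak at the 58.3 percentile in siOrc6 and 64.3 in siGl3 with H2O2, none in siOrc6 untreated and one at the 0.164 percentile in siGl3 untreated. ADAMTS12 and IGFBP2 had no peak within 1 kb of the 5′ end in any of the 4 lists, although their 3′ ends carried a lower region. The windows of 250 bases before to 50 after the start of these 3 genes, from RefSeq (GRCh38.p14), show a start that is open throughout, one whose listing differs between conditions and one without a peak, written 5′ to 3′ on the strand of the gene, with the GC box (GGGCGG, either strand) in capitals.
BCAS3, chr17:60677601-60677900, plus strand: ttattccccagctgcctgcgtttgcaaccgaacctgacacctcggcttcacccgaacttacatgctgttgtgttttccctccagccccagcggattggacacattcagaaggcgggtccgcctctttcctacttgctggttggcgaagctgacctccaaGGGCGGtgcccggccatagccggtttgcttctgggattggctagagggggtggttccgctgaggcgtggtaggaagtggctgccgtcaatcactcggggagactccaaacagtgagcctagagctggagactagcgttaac
SPTB, chr14:64879858-64880157, minus strand: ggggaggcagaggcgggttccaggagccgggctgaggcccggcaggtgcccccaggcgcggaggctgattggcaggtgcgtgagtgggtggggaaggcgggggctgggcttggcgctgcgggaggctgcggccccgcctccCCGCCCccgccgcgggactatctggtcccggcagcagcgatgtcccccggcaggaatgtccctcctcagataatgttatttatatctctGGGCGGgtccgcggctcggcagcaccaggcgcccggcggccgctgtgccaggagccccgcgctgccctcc
ADAMTS12, chr5:33891941-33892240, minus strand: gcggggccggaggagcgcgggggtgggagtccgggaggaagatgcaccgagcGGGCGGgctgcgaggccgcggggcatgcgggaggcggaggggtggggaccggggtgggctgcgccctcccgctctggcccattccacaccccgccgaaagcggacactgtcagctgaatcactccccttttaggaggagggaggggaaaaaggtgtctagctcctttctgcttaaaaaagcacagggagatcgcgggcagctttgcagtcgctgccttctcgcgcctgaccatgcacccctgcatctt

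GC content was 58.3% in the BCAS3 window, 73.7% in the SPTB window and 67.0% in the ADAMTS12 window, against a median of 58.7% over all 34961 start windows. The table holds 10 start windows of the 6 genes, and 8 of them contain the GC box on either strand, as do 45.0% of all windows. The AP-1 motif TGANTCA occurred in 1 of the 10, that of ADAMTS12, and in 7.68% of all windows. The TEAD motif GGAATG occurred in 2, those of ADAMTS12 and the upstream start of SPTB, and in 14.0% of all. RUNX (TGTGGT) was in 1, the E-box CACGTG in 1 and CCAAT in 4, against 13.1%, 7.27% and 34.6% of all windows. Both strands were searched, and none of these motifs contains another. None of the 10 windows overlapped a changed region in either treatment. The DNA of the lower regions themselves was not analysed here.

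ASIC2 codes for a proton-gated sodium channel of neurons (chromosome 17, 33013087 to 34156768, minus strand). Of its 7 lower regions, 5 lay between 34024905 and 34116560, at 3.52% to 11.5% of the gene length from the 5′ end. The other 2 were inside the gene at 71.9% of its length and 8 bp beyond its 3′ end. This 5′ end is that of the RefSeq span, where the strongest peak ranked at the 28.7 percentile in siOrc6 and 15.8 in siGl3 with H2O2. Untreated it ranked at 25.4 in siOrc6 and 17.9 in siGl3. The ASIC2 start window searched above, 33293246 to 33293545, lies inside the span, and those 5 regions are upstream of it. It had peaks in all lists, at the 81.5 percentile in siOrc6 and 79.4 in siGl3 with H2O2, and at 85.1 and 81.2 untreated. The 3′ region, 33012351 to 33013079 (729 bp), had peaks in all 4 lists, at the 71.8 percentile in siOrc6 and 86.0 in siGl3 with H2O2, and at 69.5 in siOrc6 and 83.9 in siGl3 untreated. The region of 615 bp at 34110409 to 34111023 had no siOrc6 peak in either treatment, and siGl3 peaks at the 26.0 percentile with H2O2 and the 44.0 untreated. It is the single ASIC2 region that was also listed lower with H2O2. It lies 783 bp from the start of the non-coding gene LOC107985036, and 4 of the 7 ASIC2 regions overlap this gene or its neighbour LOC107987247. The 5 higher regions of ASIC2 all lay between 33164197 and 33811886, so that lower and higher regions occupied different stretches of the gene apart from the region at 33334600.

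PARD3 is the scaffold that joins the PAR polarity complex at cell junctions (chromosome 10, 34109561 to 34815296). Its 6 lower regions were between 225 and 636 bp wide and spread over 610.0 kb. The one at the end of lower coordinate, 34110115 to 34110742, had peaks in all lists, at the 55.6 percentile in siOrc6 and 71.8 in siGl3 with H2O2, and at 48.2 in siOrc6 and 75.2 in siGl3 untreated. Of the other 5, 4 had a peak in siGl3 untreated and in no other list, at percentiles from 5.98 to 26.4. These were low-ranked peaks, listed with H2O2 under neither siRNA. At the opposite end of PARD3 accessibility was listed higher, in a region of 2444 bp (34813673 to 34816116) that also covers the start of PARD3-DT. Its strongest peak ranked at the 96.9 percentile in siOrc6 and 96.5 in siGl3 with H2O2, and at 87.6 in siOrc6 and 90.4 in siGl3 untreated. The 2 ends of PARD3 therefore appear in opposite lists, although the untreated rank of this higher region was lower in siOrc6. Of all untreated regions, 11.15% of the higher and 0.948% of the lower ones lay within 1 kb of a 5′ end.

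BCAS3, a cytoskeletal protein that also binds forming autophagosomes (chromosome 17, 60677851 to 61392831, plus strand), had the widest lower region of all 8 genes. It measured 2191 bp (61393526 to 61395716), began 695 bp beyond the 3′ end and overlapped the non-coding gene TBX2-AS1. Its strongest peak ranked at the 67.0 percentile in siOrc6 and 81.3 in siGl3 with H2O2, and at 59.0 in siOrc6 and 81.6 in siGl3 untreated. The other 3 lay inside the gene, at 39.4%, 74.4% and 92.0% of its length. The region at 61334828 to 61335682 held the highest-ranked untreated siGl3 peak of the 32, with siOrc6 at the 78.3 percentile in the same treatment. With H2O2 it ranked at the 66.2 percentile in siOrc6 and the 82.4 in siGl3.

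RAC2 is a Rac GTPase that in blood cells activates the NADPH oxidase (chromosome 22, 37225270 to 37244269). It is the shortest of the 8 genes, and its 4 lower regions were 365 to 700 bp wide. The region near the end of lower coordinate, 37226118 to 37226817, had a low-ranked peak in siGl3 untreated alone, at the 8.94 percentile. The region at 37233870 to 37234259 had a siGl3 peak at the 16.3 percentile untreated and no siOrc6 peak there. With H2O2 its peaks ranked at the 17.4 percentile in siOrc6 and 37.4 in siGl3. The region at 37242394 to 37242985, 1284 bp inside the end of higher coordinate, had peaks in all lists, at the 63.4 percentile in siOrc6 and 75.8 in siGl3 with H2O2, and at 57.8 in siOrc6 and 76.6 in siGl3 untreated. The region at 37248291 to 37248655, outside the gene, had no siOrc6 peak in either treatment and was listed lower with H2O2 too. Within 1 kb of the end of higher coordinate a weak peak was present in siOrc6 and siGl3 with H2O2 (percentiles 21.3 in siOrc6 and 17.4 in siGl3) and in siOrc6 untreated (10.9), and none in siGl3 untreated.

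SPTB codes for the beta spectrin of red blood cells (chromosome 14, 64746283 to 64879907, minus strand). The region over its 3′ end, 64745655 to 64747618 (1964 bp), also overlaps PLEKHG3. It had no siOrc6 peak with H2O2 and a siGl3 peak at the 51.2 percentile. Untreated, its peak was 507 bp wide at the 1.13 percentile in siOrc6 and 1963 bp wide at the 75.7 percentile in siGl3. This is the largest gap in percentile between both untreated lists among the 13 regions with a peak in each. A further start of SPTB, inside the gene, had peaks at the 80.1 percentile in siOrc6 and 81.6 in siGl3 with H2O2, and at 87.6 in siOrc6 and 86.8 in siGl3 untreated.

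IGFBP2 is a secreted protein that binds insulin-like growth factors (chromosome 2, 216632828 to 216664436, plus strand). Its 3 lower regions lay at 48.6% and 58.7% of its length from the 5′ end and beyond its 3′ end. The strongest, 216664446 to 216665614, began 10 bp beyond the 3′ end. Its peak ranked at the 66.4 percentile in siOrc6 and 85.4 in siGl3 with H2O2, and at 68.1 in siOrc6 and 88.2 in siGl3 untreated. The span held 4 peaks in siOrc6 untreated and 8 in siGl3 untreated.

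ADAMTS12 is a secreted metalloprotease of the extracellular matrix (chromosome 5, 33523535 to 33891990, minus strand). The region over its 3′ end, 33523156 to 33523630, had a siOrc6 peak of 188 bp at the 7.25 percentile and a siGl3 peak of 327 bp at the 48.2 percentile with H2O2. Untreated it had no siOrc6 peak and a siGl3 peak of 474 bp at the 41.9 percentile, and it was listed lower in both treatments. The other 2 regions had peaks in all lists.

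TSHZ2, a zinc finger transcription factor of the teashirt family (chromosome 20, 52972358 to 53495330, plus strand), had narrow and weak regions. Without H2O2 they were 212 bp at 53448993 and 211 bp at 53495539, both overlapping TSHZ2-AS1, with siGl3 peaks at the 15.3 and 10.4 percentiles and no siOrc6 peak. The second, 209 bp beyond the 3′ end, was also listed with H2O2, where its siGl3 peak ranked at the 2.58 percentile. A further region, 53040761 to 53041041, was listed lower with H2O2 alone. It had siGl3 peaks in both treatments, at the 21.3 percentile with H2O2 and the 3.14 untreated, and no siOrc6 peak.

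With H2O2 few of these regions were listed again. The 8 genes held 5 lower regions at 5 of 220 merged peaks (2.27%, interval 0.975% to 5.21%), against a background of 1.41%, and 0 higher regions (interval up to 1.72%), against a background of 1.13%. Without TSHZ2, whose H2O2 values were known at the choice, 3 of 199 merged peaks (1.51%) were at a lower region, and in gene bodies alone 3 of 210 (1.43%), level with the background. Of the 32 untreated lower regions, 4 (12.5%, interval 4.97% to 28.1%) overlapped a region lower with H2O2, against a background of 15.6% of all 5698 untreated lower regions. They belong to ASIC2, RAC2, ADAMTS12 and TSHZ2, 1 each. The kept share is near the background.

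The rule counted regions of the untreated comparison, and the peak lists with H2O2 come from other libraries. TSHZ2, chosen with its H2O2 regions known, has no region with a peak in both H2O2 lists. Of the 32 regions, 15 had a peak in both H2O2 lists, 7 in siGl3 alone, 0 in siOrc6 alone and 10 in neither. The share with a peak in siGl3 alone was 21.9%, against a background of 31% of all untreated lower regions, and the share with none was 31.3%, against 20.9%. PARD3 holds 4 of the 10 without a peak and ASIC2 2. BCAS3 and ADAMTS12 kept a siGl3 peak at each of their regions with H2O2. At all 15 regions with a peak in both lists, the siOrc6 peak stood at a lower percentile of its list than the siGl3 peak did. The median was the 51.0 percentile in siOrc6 and the 65.8 percentile in siGl3. The background for a lower siOrc6 percentile was 97.5% of all untreated lower regions with both peaks and 58.6% of merged peaks at no changed region. Untreated, by the choice, it was 13 of 13, against backgrounds of 99% of all untreated lower regions and 56.5% of merged peaks at no changed region. The untreated medians of these 13 were the 57.6 percentile in siOrc6 and the 75.9 in siGl3. Over every region with a peak in a list, the order of medians turned round. With H2O2 it was the 51.0 percentile in siOrc6 (15 regions) and 49.7 in siGl3 (22 regions), and untreated it was 57.6 in siOrc6 (13 regions) and 41.5 in siGl3 (32 regions). These medians are over different regions, since siGl3 also had peaks where siOrc6 had none.

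**Figure D3:**
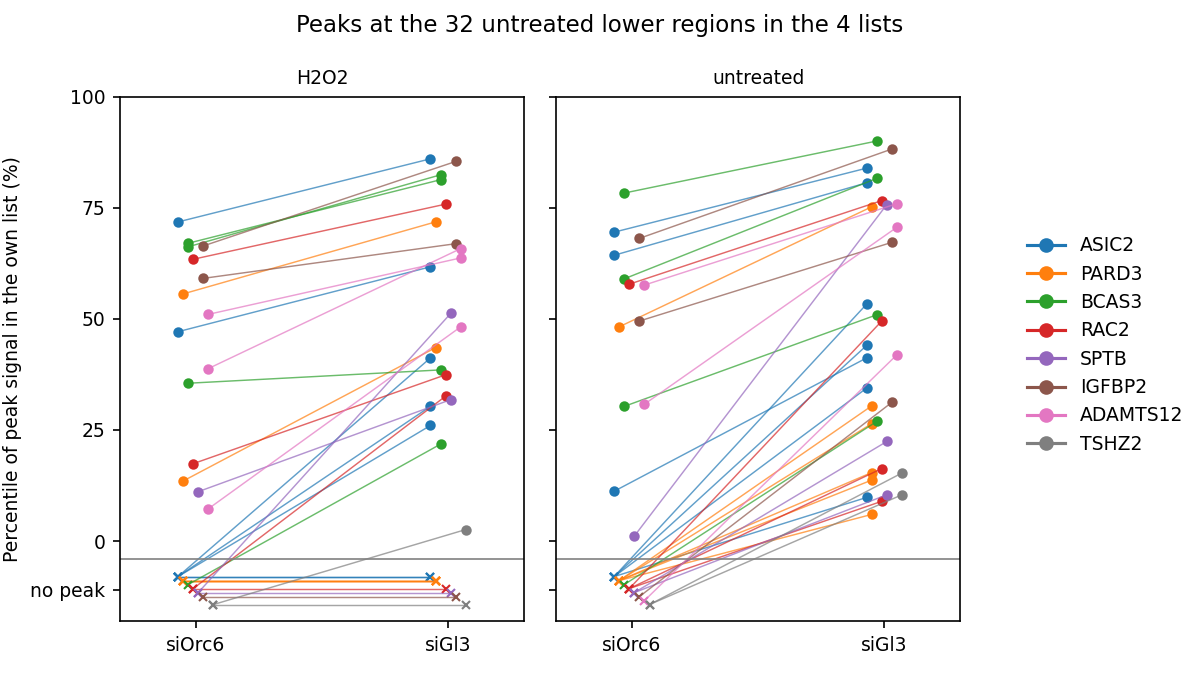
Percentile of peak signal within its own list for the strongest peak at each of the 32 untreated lower regions, in siOrc6 and siGl3, with H2O2 (left) and untreated (right). Lines join the same region, colours are genes, and crosses under the grey line mark regions without a peak. With H2O2 all 15 regions with both peaks have the lower percentile in siOrc6, and 10 regions have no peak in either list.

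Peak widths followed the same order. With H2O2, 14 of the 32 regions had 1 peak in each list, and the siOrc6 peak was narrower in all 14, with a median of 386 bp in siOrc6 and 559 bp in siGl3. The background was 90.8% of all untreated lower regions with 1 peak in each list and 44.2% of merged peaks at no changed region. The widest differences were in SPTB, with 175 bp in siOrc6 and 548 bp in siGl3 at 64801476, and in ADAMTS12, with 289 bp in siOrc6 and 570 bp in siGl3 at 33781127. Untreated, 11 of 11 siOrc6 peaks were narrower, at medians of 506 bp in siOrc6 and 631 bp in siGl3, against backgrounds of 98% of all untreated lower regions and 46.7% of merged peaks at no changed region. Width and rank come from the same peaks and are not independent.

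**Figure D4:**
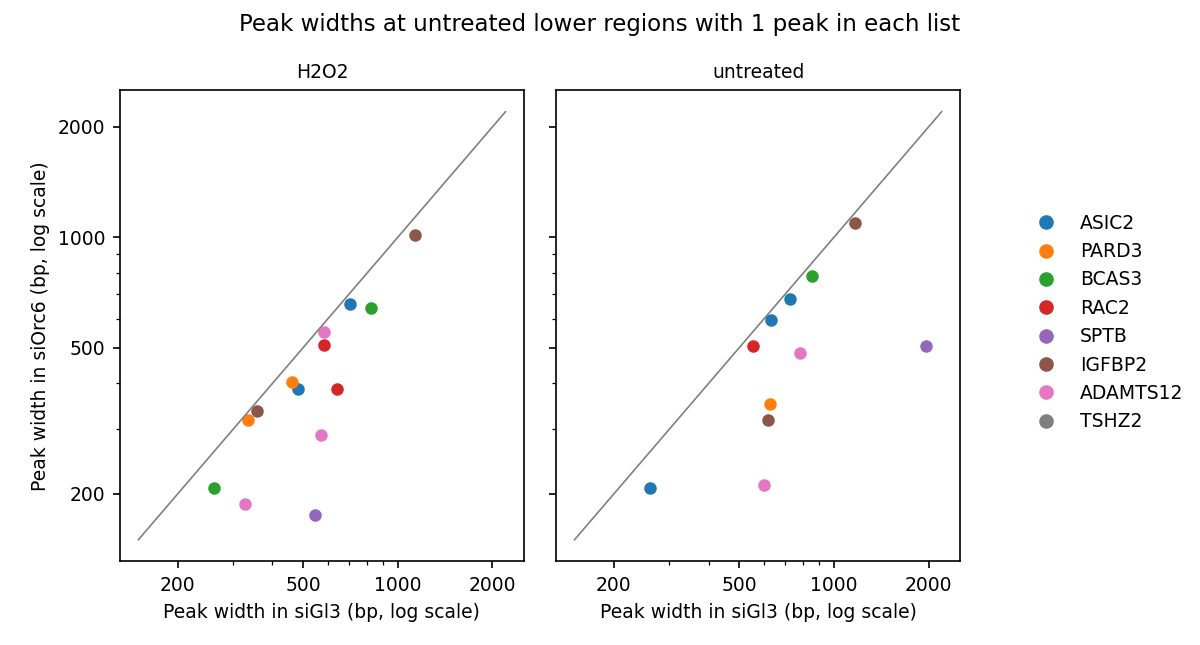
Width in bp of the siOrc6 peak against that of the siGl3 peak at untreated lower regions with 1 peak in each list, with H2O2 (left, 14 regions) and untreated (right, 11 regions), on log axes. Colours are genes and the grey line marks equal widths. Every point lies under the line.

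The 32 lower regions were between 197 and 2191 bp wide, with a median of 595.5 bp. The median of all untreated lower regions was 436 bp, and no comparison is drawn, since the summed length of regions entered the choice. The 12 higher regions of these genes had a median of 540 bp. With H2O2, 9 of these 12 had a peak in both lists, 8 of them at a higher percentile in siOrc6, against a background of 84.2% of all untreated higher regions with both peaks. None of the 12 (0) overlapped a region higher with H2O2, against a background of 10.8%. Untreated, 8 had a peak in both lists, 7 of them at a higher percentile in siOrc6, against a background of 95.3%. Beyond the spans, the 500 kb on each side had 8 of 71 merged peaks at a lower region around PARD3, 11 of 125 around SPTB, 6 of 72 around ASIC2 and 5 of 77 around IGFBP2. Fewer were seen around RAC2 (5 of 117), BCAS3 (2 of 69), TSHZ2 (1 of 73) and ADAMTS12 (0 of 42). PARD3 had a lower share (9.68%) than its surroundings (11.3%), as did ASIC2 (8.24% and 8.33%). The other 6 genes had higher shares than their surroundings. The genes were chosen by these same untreated lower regions and their surroundings were not, so the choice itself favours higher shares in the genes. These differences were not tested.

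Relatives of the 8 genes, 69 genes in 8 lists of families and partners, gave 5 genes with a lower region with H2O2 (7.25%, background 3.46% of protein-coding genes) and 15 without it (21.7%, background 11.8%). Higher regions were carried by 2 with H2O2 (2.90%, background 2.38%) and by 19 without it (27.5%, background 17.5%). These shares were not matched for gene length or number of peaks. The counts that follow are without H2O2 unless stated. Among partners of PARD3 in the polarity complex, PARD6B had 2 lower regions at 3 of its 4 merged peaks, and PARD3B had 1 lower and 3 higher ones. Of the spectrins and ankyrins, SPTBN5 had 3 lower regions, SPTBN1 2 and ANK1 1, while SPTBN4 had 2 and ANK3 1 higher region. In the IGF axis, IGFBP7 had 3 lower regions and 1 higher, IGFBP3 and the receptor IGF1R 1 lower each, and IGFBP4 1 and IGF2 2 higher. Among the ADAMTS proteases, ADAMTS3, ADAMTS7 and ADAMTS17 had 2 lower regions each, and 7 of 18 carried a higher one. RAC1, TSHZ3, BCAS4 and PHAF1, the partner of BCAS3 in autophagy, also had lower regions, 1 each except TSHZ3 with 2. Apart from ASIC2 itself, no listed acid-sensing or related sodium channel gene had an untreated lower region (0 of 8), while SCNN1B had 1 with H2O2. The other relatives with a lower region with H2O2 were PARD3B, SPTBN4, ANK3 and IGF1R, 1 each. SPTBN4 and ADAMTS16 had 1 higher region each with H2O2.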

How the data were processed

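ATAC-seq was run on U2OS cells under 2 siRNAs and 2 treatments, with 2 libraries for each condition, which the labels assign to batches 1 and 2. Tools named in the submitters' processing notes, without role or threshold, are Genrich, edgeR, deepTools, SAMtools, Picard, Bowtie2 and bcl2fastq 2.20, and the build is hg38. Each of the 4 deposited peak lists covers both libraries of a condition. The peak signal (column 7) and −log10 p of each peak were used as the authors deposited them. The deposited lists of changed regions hold positions and a serial number, and their starts are printed as BED starts plus 1.

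Chromosomes 1 to 22 and X were kept, and overlapping or adjoining peaks of a treatment were merged. Overlap was at least 1 bp. Genes, ends and starts came from RefSeq tables of GRCh38.p14, with a strand for 6 of the 8 genes and start windows for the same 6. For regions with several peaks the peak of highest signal was ranked. Wilson 95% intervals cover counting error only and treat peaks as independent. Interval functions were tested on simulated data. Members and gene lists were chosen with earlier results of these data known. Named genes are the 8 members, the next 8 by number of lower regions among genes hit at an end, the 5 others of highest share and of highest number, relatives with a changed region and genes over a lower region. No test was run, since there is 1 list per condition. Software was matplotlib 3.10.9, pandas 2.3.3, numpy 2.4.6 and scipy 1.17.1 under Python 3.11.15. Alternatives were other spans, overlaps, joining, stricter peaks, other ranks and genes left out.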

Additional observations from a re-analysis of the deposited data

How the results depend on the processing

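No paired analysis was possible because each condition has 1 peak list for both of its libraries, so that no value carries a replicate number, and no replicate could be left out. Of 32 values under alternatives, 31 stayed within the error of the reported value: shares within its Wilson interval, medians within its order-statistic interval over regions, and counts of genes equal. The exception was the share of merged peaks at a lower region with H2O2 among peaks above the median −log10 p, 0.885% (1 of 113, background 0.933%), against 2.27% of all peaks. In gene bodies alone that share was 1.43% (3 of 210), also well below 2.27% though within its interval, and without TSHZ2 it was 1.51% (3 of 199). The background in both is 1.41%. The alternatives reuse the same regions and the intervals are wide, so staying within them says little about stability. The stricter overlap left every share and median it was applied to unchanged. Without H2O2 the share ranged from 10.5% to 13.5%, and the kept share from 7.41% (gene bodies alone) to 12.5%. Ranked by −log10 p, the median percentile in siOrc6 untreated was 47.6, against 57.6 by signal. Leaving out TSHZ2 and the 3 kb ends were chosen after seeing the data. At 3 kb, 6 of 6 genes still had a lower region at the 3′ end and 0 at the 5′ end. Depth is unknown, so that the absence of a peak says only that none was listed.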
